A study of Mus musculus with 12 samples.

Results

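The m6A landscape of control mouse lung was described from the deposited peak list of the PBS group, in which 3 immunoprecipitated (IP) libraries were set against 3 input libraries of the same group. All 26102 peaks of that list were taken, without a further filter, and the 6 libraries behind them were part of a series of 12. The series measured N6-methyladenosine (m6A) on RNA in lungs of mice with ovalbumin-induced allergic asthma and of PBS-treated controls. Each mouse gave fragmented RNA enriched by an antibody to m6A (IP) and the same RNA without enrichment (input). The control mice were female BALB/c animals of 6 to 8 weeks that were injected with PBS on days 0 and 7 and breathed PBS aerosol daily from day 14 to day 20. Lungs were taken on day 21, by the study's methods after a methacholine provocation of the airways, and whether each sequenced mouse had undergone it was not stated. RNA came from lung tissue, and the cells that carried a methylated transcript cannot be told apart.

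m6A is the most common internal modification of mRNA. It is written by a complex built around METTL3 and METTL14, removed by FTO and ALKBH5, and read by proteins with a YTH domain among others, and it acts on splicing, export, translation and decay. Known sites lie mostly near stop codons, in 3′ UTRs and in long exons.

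The 3 mice were given as 1 list, and how they were combined was not stated. No value of a single mouse, no read count and no library depth was in the list, so the depth behind each peak is unknown and no spread between mice can be given. The 95% intervals of shares are Wilson intervals and reflect counting error alone. The fold enrichment (FE) is the deposited IP to input ratio of a peak, and a peak's strength is also given by the log10 of its p value or false discovery rate (FDR). An FDR under 0.05 was held by 97.8% of the peaks and an FE of at least 2 by 89.4%. A missing peak does not show that a transcript was unmethylated or absent, since a transcript with few reads may give no peak.

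Each peak carries 2 gene names, the gene on whose exons it was called and the gene that the annotation assigned to it by the nearest transcript start. These were the same gene for 77.2% of the peaks. Counts of genes below use the called gene. The peaks lay on 13365 called genes, and 22982 of them (88.0%) were on genes with a protein-coding entry in RefSeq. Of 21896 such genes, 11204 (51.2%) had at least 1 peak, 47.6% had a peak with an FDR under 0.01 and an FE of at least 2, and 40.4% had one with a log10 FDR of -10 or lower. The highest FE of a coding gene had a median of 8.97, with quartiles of 4.44 and 14.8, and these values stand beside each list of genes below.

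The lung label was set against marker genes of its cells. All 8 markers of alveolar type 1 cells, the flat cells of gas exchange, had a peak, from Ager with an FE of 1.27 to Akap5, an anchor of protein kinase A, with an FE of 14. Of 9 markers of surfactant-making type 2 cells, 8 had a peak, with the highest FE on the transcription factor gene Etv5 (8.15), and Sftpc, which encodes surfactant protein C, had none. All 12 endothelial markers had a peak, as did 8 of 9 fibroblast markers (not Dcn, the proteoglycan decorin), 7 of 8 ciliated-cell markers (not Rsph1, a radial spoke gene) and 5 of 8 markers of club and secretory airway cells. Smooth muscle had 3 of 6 markers with a peak, led by the myosin gene Myh11 (2.7), without the actin genes Acta2 and Actg2 or Tagln, and of 5 basal-cell markers only the neurotrophin receptor gene Ngfr had one. Erg, an endothelial transcription factor, had the highest FE of any endothelial marker (67.6), in its 3′ UTR. Pdgfra, a growth factor receptor gene, was highest among fibroblast markers (18.3) and Foxj1, the transcription factor gene of cilia, among ciliated-cell markers (17.3). In the secretory list the gel-forming mucin gene Muc5ac was highest (20.7, with a log10 FDR of -5.21) and its relative Muc5b had 8 peaks, whereas Cyp2f2, Scgb3a1 and Scgb3a2 had none. Median highest FE was 5.44 for type 1, 4.17 for type 2, 6.91 for endothelial, 8.95 for fibroblast, 3.33 for ciliated, 8.55 for secretory and 2.26 for smooth muscle markers, each below the 8.97 of coding genes. Beside the 51.2% of coding genes with a peak, the intervals of the type 1, type 2, endothelial, fibroblast and ciliated shares lay higher, with the lowest bound at 52.9%. Those of the secretory (30.6% to 86.3%), smooth muscle (18.8% to 81.2%) and basal-cell markers (3.62% to 62.5%) held the 51.2%. The members of this and every later list were chosen with earlier results of these data known and are no random draw. Their intervals describe the counts and do not test the lung label. At a log10 FDR of -10 or lower the ciliated markers had a median highest FE of 6.11 over 4 genes. Their share was then 50%, beside 40.4% of coding genes.

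Markers of leukocytes and of other cells were set beside the same 51.2%. A peak was present on 6 of 9 macrophage and monocyte markers (median highest FE 3.69), 3 of 5 B-cell markers (12.2), 3 of 7 T- and NK-cell markers (8.97) and 4 of 9 granulocyte and mast-cell markers (3.98). Among macrophage markers the growth factor receptor gene Csf1r was highest (19.9) and the phagocyte receptor gene Mertk had 4 peaks, while Marco, Siglecf and Cd68 had none. The B-cell transcription factor gene Pax5 reached an FE of 21.2 and the T-cell receptor subunit gene Cd3e one of 10.4, both with a log10 FDR above -10, and the neutrophil chemokine receptor gene Cxcr2 one of 40.5. The mesothelium had 3 of 4 markers with a peak (3.55), led by Lrrn4 (16.9) and without Wt1. Of 5 erythroid markers only Hba-a1, an alpha-globin gene, had a peak. No neuron marker of the list had one. Of 6 cardiomyocyte markers 4 had a peak (5.12), Ttn, Ryr2, Tnnt2 and Myh6. The intervals of these shares, from 35.4% to 87.9% for macrophages and 23.1% to 88.2% for B cells among them, held the 51.2%, apart from that of the 5 neuron markers (0% to 43.5%). Heart muscle RNA in the samples, or expression of these genes within lung, was not tested.

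Peak strength ran over a wide range. FE rose from 1.08 to 227, 28.1% of the peaks had an FE of at least 10, 6.84% one of at least 20, and 15 peaks one of at least 100. FE and p did not rank peaks alike. Across peaks, which share libraries and are not independent, the Spearman correlation of FE with -log10 p was 0.473. The median log10 p was -12.3 for peaks with an FE of 2 to 5, -51 for 5 to 10, -110 for 10 to 20 and -130 for 20 to 50, but -57.2 for the 102 peaks of 50 or more. The 758 peaks with a log10 p of -1000 or lower, minus infinity included, had a median FE of 13.7.

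Weak and strong peaks differed in place and size. The 10090 peaks with a log10 FDR above -10 had a median FE of 3.34 and a median exonic length of 152 bp. The 16012 stronger ones had a median FE of 7.03 and a median of 482 bp. The 3′ UTR held 39.1% of the weaker peaks and 61.4% of the stronger ones, and coding or noncoding exons outside UTRs held 47.4% and 28.6%. The 3′ UTR thus held a larger share of the stronger peaks.

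The 10 peaks with the highest FE at a log10 FDR of -10 or lower came from transcripts of unlike functions. The highest FE, 227, lay at chr16:8830129-8830548 (GRCm38) in the 5′ UTR of 1810013L24Rik, a gene without an established function. Lrrc8d, a subunit of volume-regulated anion channels, followed with an FE of 224 in an exon at chr5:105728798-105729128. The KRAB zinc finger gene Zfp759 had an FE of 186 and Dhx9, an RNA helicase gene, one of 162, both in the 3′ UTR. The 5′ UTR of Smad7, an inhibitor of TGF-beta signalling, had an FE of 141 with a log10 p of -1750, the lowest p of these 10 peaks. The others were on Kctd1, a nuclear BTB-domain repressor (139), D130043K22Rik (122), the semaphorin gene Sema4c (121), the interferon-induced GTPase gene Gvin1 (120) and the growth factor gene Fgf18 (108). Of the 10, 5 lay in a 3′ UTR, 3 in a 5′ UTR and 2 in another exon.

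The peaks taken as lowest in p were on other genes. For 25 peaks the list gives a log10 p of minus infinity, which was assumed to lie below every finite value. These 25 are tied, and the 10 of them with the highest FE had FE values between 40.2 and 58.7. All 10 were in 3′ UTRs. They lay on Zbtb22, a BTB zinc finger gene (58.7), Arl4c, a small GTPase gene (57.2), Trim25, a ubiquitin ligase gene of antiviral signalling (54.6), Phf3, a regulator of transcript elongation (50.1), and the kinase gene Nuak1 (46.2). The rest were on Mars2, the mitochondrial methionyl-tRNA synthetase (45.9), the RNA-binding gene Mex3d with 2 overlapping peaks (45.8 and 40.2), Rtl10 (41.9) and Pura, which encodes a nucleic-acid-binding protein (41.1). The lowest finite log10 p was -230000, on a peak of 1680 bp of the nuclear noncoding RNA Malat1 with an FE of 12 (chr19:5800993-5802672), which was chosen after its values were seen.

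Of all peaks, 52.7% (52.1 to 53.3) were in a 3′ UTR, 35.9% (35.3 to 36.4) in an exon outside UTRs and 11.4% (11.0 to 11.8) in a 5′ UTR. Their median FE values were 5.85, 4.99 and 5.43. The regions differed more in p than in FE, with a median log10 p of -39.8 in the 3′ UTR, -13.4 in the 5′ UTR and -10.5 in other exons. Peaks of the 5′ UTR were spliced more often, with 35.5% made of 2 or more exonic blocks, beside 19.4% in the 3′ UTR and 19.9% in other exons. Among all peaks 78.6% had 1 block, and the most had 8.

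Exons at the end of a transcript held many of the exon peaks. Of 9362 such peaks, 1554 (16.6%) lay on transcripts of 1 exon. Of the other 7808, 33.0% (32.0 to 34.1) lay in the last exon, 14.7% in the first and 52.2% (51.1 to 53.4) in an internal one, on transcripts with a median of 7 exons. Median FE was 5.59 in last exons, 5.37 in first exons and 4.29 in internal exons, so the internal exons held the most peaks with the lowest enrichment.

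Along the transcript, mRNA peaks gathered at both ends. This could be measured for 6350 peaks that lay with their midpoint inside a protein-coding transcript of the called gene, in genomic distance that counts introns. The first decile of the transcript held 29.2% of them and the last decile 18.3%, while the deciles between held from 5.18% to 9.75% each. Median FE was lowest in the first decile (4.9), rose to 9.03 in the sixth and was 5.83 in the last. The transcript was assigned by its nearest start, which favours positions near a start by construction. Peaks that reached the transcript end were 8.71% of the set, with a median FE of 9.15, and those that reached the start were 17.8%, with a median FE of 6.33.

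Within genes the 3′ UTR was on the higher side. Peaks in a 3′ UTR were present on 9556 called genes (71.5%), in other exons on 6064 (45.4%) and in a 5′ UTR on 2638 (19.7%). Regions were compared by their highest FE in a gene, which favours the region with more peaks. In 1930 genes with peaks in both UTRs, the 3′ UTR was higher in 1164, or 60.3% (58.1 to 62.5). Against other exons it was higher in 1726 of 2736 genes, or 63.1% (61.3 to 64.9). Exons outside UTRs were above the 5′ UTR in 429 of 905 genes, or 47.4% (44.2 to 50.7). Peaks of 1 gene share its abundance, apart from differences between isoforms. Among peaks at a log10 FDR of -10 or lower the same shares were 59.1%, 60.6% and 47.1%. With exactly 1 peak in each of the regions compared, a limit chosen after the values were seen, they were 57.2% of 1100 genes (54.2 to 60.1), 65.3% of 1192 (62.5 to 67.9) and 42.3% of 485 (37.9 to 46.7). Only 3′ UTR peaks were found on 5568 genes (41.7%), and 678 genes (5.07%) had peaks in all 3 regions.

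A gene's peaks were often unequal. In the 6712 genes with 2 or more peaks, the highest FE was a median of 3.06 times the lowest, at least 2 times in 68.9% and at least 10 times in 8.33%. Myc, the growth-regulating transcription factor gene, held FE values from 6.51 to 79, and Jun, its immediate early counterpart in the AP-1 complex, from 2.15 to 63.3. The FE of a gene's highest peak is therefore no measure of its other peaks.

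Called genes with exactly 1 peak made up 49.8% (48.9 to 50.6), those with 2 peaks 27.1%, with 3 peaks 12.2% and with 4 peaks 5.87%. There were 97 genes with 8 or more. The median of the highest FE went from 6.09 at 1 peak to 9.87 at 2, 12.8 at 4 and 16.7 at 7, and was 15.3 at 8 or more. Taking the highest of more values gives a rise by construction. The median FE of all their peaks went the other way, from 6.09 at 1 peak to 5.09 at 4 and 4.27 at 7. It was 4.93 at 8 or more.

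Long genes had peaks more often. Coding genes were placed in 4 length classes of equal number. In the shortest, up to 5.65 kb, 24.8% (23.7 to 26.0) had a peak, in the next ones 50.2% and 60.1%, and in the longest, from 44.3 kb, 69.6% (68.3 to 70.8). Genes with a peak had 1.66 peaks on average in the shortest class and 2.48 in the longest. Among the 11204 coding genes with a peak, the Spearman correlation of peak number with gene length was 0.211, across genes that are not independent. The median highest FE did not climb in the same way, at 9.38, 8.26, 8.55 and 9.66 from the shortest to the longest class.

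The 10 genes with the most peaks encode mostly giant proteins. Ttn, the gene of the sarcomere spring titin, had 40 peaks over chr2:76704009-76945759, of which 39 were in exons outside UTRs, with FE values from 1.99 to 10.6 and a median of 4.15. The annotation assigned 25 of these 40 peaks to another gene. Muc16, a membrane mucin of airway and mesothelial surfaces, had 20 peaks, none with an FE above 7.06 and none in a UTR. The transcription factor gene Zfhx3 and the cytoskeletal linker gene Dst had 18 each. Ahnak2, a giant scaffold gene, had 17 peaks over chr12:112772730-112785579, with an FE of 67.1 at its highest and a median of 7.52. Some of its peaks overlapped, such as chr12:112772730-112773265 and chr12:112772731-112773569, so its count of separate places was lower. Zfhx4 (16 peaks), a homologue of Zfhx3, the presynaptic scaffold gene Pclo (14), the histone methyltransferase gene Kmt2d (14), the giant cadherin gene Fat2 (13) and Zfhx2 (13) completed the 10. Further genes tied with the last of these at 13 peaks, among them Xkr4, the noncoding RNA Kcnq1ot1, Ahnak and the spectraplakin gene Macf1.

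By the class of the assigned transcript, 42.5% of peaks (41.9 to 43.1) were protein-coding, 20.1% (19.6 to 20.6) retained-intron and 14.4% processed transcripts. Nonsense-mediated-decay transcripts had 1095 peaks, antisense transcripts 928, processed pseudogenes 911, long intergenic noncoding RNAs (lincRNA) 895 and unconfirmed transcripts marked for experimental checks (TEC) 775. The class describes the transcript with the nearest start and often not the RNA on which the peak was called. Of retained-intron peaks 97.4% were called on RefSeq protein-coding genes, of processed-transcript peaks 93.5% and of decay-transcript peaks 97.0%. Over all peaks the share was 88.0%. For lincRNA, antisense and processed pseudogene peaks it was 38.0%, 39.1% and 58.5%.

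Among classes with at least 100 peaks, median FE ran from 4.07 for peaks assigned to small nucleolar RNAs and 4.5 for retained introns to 7.29 for lincRNAs, 7.4 for unprocessed pseudogenes and 8.14 for bidirectional-promoter lncRNAs. Protein-coding transcripts stood at 5.82. In the lincRNA class 69.6% of peaks lay in exons outside UTRs, in the bidirectional-promoter class 92.1%, and in the protein-coding class 28.8%. Coding transcripts also had the largest share of 5′ UTR peaks among the classes with at least 100 peaks, at 19.8%, beside 13.3% for decay transcripts and 6.07% for processed transcripts. A noncoding transcript has no UTR, so the region shares of the classes differ in part by construction. Only 38.0% of lincRNA peaks and 7.92% of bidirectional-promoter peaks were called on RefSeq protein-coding genes.

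Several of the highest peaks in noncoding classes belonged to coding genes. The antisense class was led by D130043K22Rik and by Shank1, a postsynaptic scaffold gene (74), and the lincRNA class by Zmat4, a zinc finger gene whose assigned transcript gave a distance of -112829 bp from its start, and by AI197445 (59.7). In the microRNA class the highest were Chsy3, a chondroitin synthase gene (53.5), and the adhesion receptor gene Adgre5 (42.9). The processed pseudogene class had the serotonin receptor gene Htr2a (68.6) and Arfgef3 (49.8), the snRNA class Lrfn3 (58.2) and the RNA-binding gene Taf15 (40.3), and the snoRNA class the cation channel gene Trpm2 (75.5) and C1galt1, which builds O-glycans (54.3). All of these but AI197445 were annotated as 3′ UTR peaks, without the name of the gene whose 3′ UTR was meant.

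The bidirectional-promoter class was led by noncoding genes called as themselves, 2610306M01Rik (82.4) and Gm26684 (45.4). TEC peaks were led by Kctd8, a potassium channel tetramerisation domain gene, and by Il2ra, which encodes the interleukin-2 receptor alpha chain (53.8). Among decay transcripts Dhx9 (162) and the cytochrome gene Cyp1b1 (81.9) were highest, among processed transcripts Zbed4 (88.3) and Bcl11a, a repressor gene of lymphoid and globin control (85.9), and among retained introns Zfp420 (106) and Washc1, of the actin-nucleating WASH complex (89.8). Sense-intronic peaks reached 36.3 on the heparan sulfotransferase gene Hs6st3 and 33.3 on Lrrc8c, a partner of Lrrc8d in anion channels. The unprocessed pseudogene class had both of its highest peaks on Gvin1 (120 and 42.9).

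By the called gene itself, 1129 peaks lay on 719 RefSeq lncRNA genes, with a median FE of 6.29 beside 5.37 on coding genes, and 1.57 peaks a gene beside 2.05. The lncRNA genes with the most peaks, chosen after their values were seen, were Kcnq1ot1 (13), an imprinted antisense RNA, E130317F20Rik (9), the paraspeckle RNA Neat1 (8) and, tied at 7, 5031425E22Rik and Xist, the RNA that coats the inactive X chromosome. Neat1's 8 peaks formed 4 overlapping pairs, so its count of separate places was lower. Xist had FE values from 1.38 to 85.9, with the highest in its last exon at chrX:103460395-103460905. A peak of 1050 bp with an FE of 23.5 was listed both on Xist and, shifted by 2 bp, on its antisense gene Tsix.

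MicroRNAs were mostly named by nearness. Of 447 peaks assigned to the miRNA class, 432 (96.6%) were called on a gene other than the assigned one, beside 22.8% of all peaks. Only 27 overlapped a RefSeq hairpin. Coding genes were the called gene for 393 (87.9%), close to the 88.0% of all peaks. In all, 39 peaks overlapped 29 of 1005 hairpins by at least 1 bp. The libraries were made from RNA fragments and not from small RNA, so such a peak shows signal over the hairpin's place in the genome, on either strand, and not on the mature miRNA. For hairpins inside a peak at the highest FE, the mature sequences (RefSeq, GRCm38.p6) are shown with the seed, bases 2 to 8, in capitals, to identify the miRNAs that lie under the strongest peaks.
miR-1896: cUCUCUGAuggugggugaggag
miR-6363: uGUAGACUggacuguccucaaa
miR-6340: gUCAGCAGcagcuucgcuuuggc
miR-6244: gGGGGCGUggaauuaucgggu
The peak over Mir1896 was called on the zinc finger gene Zscan26 (FE 19.9), that over Mir6363 on the noncoding RNA gene Dubr (18.8), that over Mir6340 on the small GTPase gene Rab22a (16.6), and that over Mir6244 on Mir6244 itself (16.3). Further peaks lay over each, on 4930470G03Rik for Mir1896 (19.3), on Mir6363 itself (16), on Mir6340 itself (6.35) and on the RNase gene Zc3h12c for Mir6244 (15.9). Their 4 seeds were all different.

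Transcript starts were seldom covered. RefSeq's table gives the first 50 transcribed bases of 17491 coding genes in 21262 windows. Of 11432 windows of genes with a peak, 977 (8.55%, 8.05 to 9.07) had at least 1 of their first 30 bases under a peak of that gene, with a median FE of 6.17. The share covered was 9.30% (8.38 to 10.3) where the first transcribed base was A, 8.43% for C, 8.11% (7.40 to 8.88) for G and 8.42% for T. A was the first base of 33.0% of covered windows and of 30.3% of windows of genes with a peak, and G of 43.5% and 45.8%. Of windows with the letters GGAC, a form of the m6A consensus, on the transcribed strand in the first 50 bases, 9.78% (8.63 to 11.1) were covered, beside 8.23% (7.69 to 8.82) without it.

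Among 356 starts that lay with their first 30 bases inside a peak at a log10 FDR of -10 or lower, 52 (14.6%, 11.3 to 18.7) held GGAC within those 30 bases, beside 11.7% of all 21262 windows. The interval for all windows, 11.3 to 12.2, overlapped that of the covered starts. The starts with the motif and the highest FE are shown from the transcribed strand, with GGAC in capitals (RefSeq, GRCm38.p6), to show where these letters fall in the covered 5′ ends. A match is a description of the letters and not a mapped site.
Bdp1: gcgagccgGGACgcggggaggagaaactta
Syncrip: gaaggaaGGACgaaggctgagaGGACaggg
Adgrl3: gaggaGGACggcgaggaGGACtgggcggag
Gpr157: aagggagGGACctggaGGACtcagggtagg
Ptch1: gcggccgcaaagacctcgGGACtcacgcgc
The start of Bdp1, a subunit of the RNA polymerase III factor TFIIIB, lies at chr13:100104041-100104070 on the minus strand under a peak with an FE of 53.3. That of Syncrip, an RNA-binding protein gene, lies at chr9:88482368-88482397 on the minus strand (FE 38.1), and that of the adhesion receptor gene Adgrl3 at chr5:81020571-81020600 on the plus strand (36). Gpr157, an orphan receptor gene, had an FE of 29.6 at chr4:150087503-150087532 on the plus strand, and Ptch1, the hedgehog receptor gene, one of 29 at chr13:63565706-63565735 on the minus strand. Syncrip, Adgrl3 and Gpr157 each held the motif 2 times.

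Transcripts of the m6A machinery were read against the 51.2% of coding genes with a peak. Of 12 genes of the methyltransferase complex and other RNA adenosine methyltransferases, 10 (83.3%, 55.2 to 95.3) had a peak, with a median highest FE of 11.5 beside 8.97 over coding genes. The 2 without a peak were Mettl3 and Mettl14, the catalytic pair of the complex. Its adaptor genes Rbm15b and Rbm15, which bring the complex to RNA, had the highest FE values of the list, 50.6 in the 3′ UTR and 22 in an exon. Wtap (19.2), Virma (15.6) and Zc3h13 (13.5, with 5 peaks), which hold the complex together, followed, and Pcif1, the writer of the cap-adjacent modification, had 5 peaks up to 7.66. The lowest were the ribosomal RNA methyltransferase genes Mettl5 (1.93) and Zcchc4 (1.61).

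Both demethylase genes had peaks, Alkbh5 with 5 and Fto with 1, a count of 2 whose interval (34.2% to 100%) holds the 51.2%. The highest FE on Alkbh5, 8.14, lay in the 5′ UTR and was weak by its log10 FDR of -3.01, while the exon peak of Fto (5.04) had a log10 FDR of -270. Of 14 reader genes 10 (71.4%, 45.4 to 88.3, which also holds the 51.2%) had a peak, with a median highest FE of 6.65, and 4 had none, Igf2bp1, Igf2bp2, Igf2bp3 and Ythdc2. Prrc2a (39.7) was highest, followed by the cytoplasmic YTH readers Ythdf2 (25.8) and Ythdf3 (18.9), each with 1 peak in the 3′ UTR. The nuclear reader gene Ythdc1 had the most peaks (5), with an FE of up to 16.1. Hnrnpc (1.43), Fmr1 (2.01) and Hnrnpa2b1 (2.88), RNA-binding readers without a YTH domain, lay below every YTH gene with a peak.

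All 20 immediate early genes, which cells switch on within minutes of a stimulus, had a peak, with a median highest FE of 14.4. Myc (79), Jun (63.3), the AP-1 gene Fosb (27.8) and Ier5 (26) led them, all in the 3′ UTR, and Egr3 had the most peaks with 6. Fos (4.68) and Zfp36 (3.84), the latter an mRNA-decay factor, were lowest. Any part of the handling of the animals in this was not tested.

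Of 24 chromatin modifier genes 22 (91.7%) had a peak, at a median highest FE of 15.9 and a median of 6 peaks a gene, beside 2 over coding genes. The remodeller gene Arid1a was highest (42.7, in the 5′ UTR), followed by the histone methyltransferase gene Kmt2b (35.4) and Arid1b (34.7). Kmt2d, Kmt2a and Kmt2c, of the same methyltransferase family, had the most peaks, with 14, 11 and 9. The 2 without a peak were Dnmt1, the maintenance DNA methyltransferase, and Ezh2, the catalytic subunit of the Polycomb complex. These genes have a median length of 82.2 kb, beside 17.2 kb over coding genes, and the part of length in their counts was not tested.

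Of 24 hedgehog, BMP and FGF genes, which shape the branching lung and its mesenchyme, 23 (95.8%) had a peak at a median highest FE of 15.9. Only Etv4, a transcription factor gene downstream of FGF, had none. The receptor gene Ptch1 (29), the ligand genes Ihh (28.6, with a log10 FDR of -7.82), Bmp4 (27.1) and Fgf7 (25) and the transcription factor gene Gli2 (23.4) were high, and Hhip, which binds hedgehog ligands, was lowest (2.41). All 20 Hippo genes, which control organ size, had a peak as well, but at a median highest FE of 7.86, below the coding median. Ajuba, an adaptor that restrains the Hippo kinases, had the highest (37), and the effector genes Yap1 and Wwtr1, which encode the related coactivators YAP and TAZ, stood far apart at 22.6 and 1.54.

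Families of transcription factors differed in how many members had a peak. Zinc finger genes named Zfp had a peak on 352 of 397 members (88.7%, 85.2 to 91.4) with a median highest FE of 14.8, led by Zfp759 (186) and Zfp420 (106), and the collagen-related regulator Zfp469 had the most peaks (11). Forkhead genes had a peak on 27 of 44 (15.8), led by Foxa1, an airway epithelial factor (30.3), Sox genes on 13 of 19 (17.1), led by Sox9 of the distal lung tip (38.5), and T-box genes on 8 of 13 (15.1), led by Tbx20 (38). The intervals of these 3 shares, 46.6% to 74.3%, 46.0% to 84.6% and 35.5% to 82.3%, hold the 51.2% of all coding genes. Klf genes had a peak on 14 of 17, but with a lower median (9.89), which was below the coding median at a log10 FDR of -10 or lower (9.46 beside 9.55), and Klf9 was highest (32.2). The Sox genes without a peak were Sox1, Sox3, Sox10, Sox14, Sox15 and Sox30, and the Klf genes Klf1, Klf14 and Klf17.

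Among surface and enzyme families, protocadherins, a family of neural adhesion genes, had a peak on 62 of 69 (89.9%, 80.5 to 95.0) with a median highest FE of 14.2, and Pcdh19 was highest (46.9) with the most peaks (8). Many members of its clusters share exons, so their peaks are not independent. Potassium channel genes and their auxiliary subunits had a peak on 58 of 94 (61.7%, 51.6 to 70.9) at a median of 14.2, led by the inward rectifier gene Kcnj14 (66.7). With a peak at a log10 FDR of -10 or lower they were 39.4%, below the 40.4% of coding genes. Tripartite motif genes had 40 of 68 (12.3, led by Trim25), ubiquitin-specific proteases 41 of 56 (11.7, led by Usp27x at 47.9), ADAMTS proteases 14 of 19 (11.4, led by Adamts15 at 35.8) and cadherins 11 of 23 (9.87, led by Cdh6 at 29.3). Solute carriers (217 of 375, 57.9%, 8.32) and Rab GTPases with their binding proteins (51 of 69, 73.9%, 8.02) were near or just below the coding median, led by the sodium-proton exchanger gene Slc9a2 (56.8) and by Rab23 (24.5). Collagens had a peak on 23 of 44 (52.3%), close to the 51.2% of all coding genes, at a median of 6.3, led by Col6a5 (30.6, with a log10 FDR of -8.48) and with the most peaks on Col6a3 (9).

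Housekeeping families had median FE values below that of coding genes. Of 83 cytosolic ribosomal protein genes 16 (19.3%) had a peak, with a median highest FE of 2.02, and the highest was 5.85 on Rpl22l1, a paralogue of Rpl22. Mitochondrial ribosomal protein genes differed, with 56 of 78 (71.8%, 61.0 to 80.6) and a median of 5.79, led by Mrpl45 (30.6). Proteasome genes had a peak on 22 of 51 (43.1%) at a median of 3.76, led by Psmd5 (20.2, with a log10 FDR of -5.05). Glycolysis genes had one on 7 of 15 (46.7%) at 4.93, led by the hexokinase gene Hk2 (13.2, 5 peaks). Gapdh, Eno1, Ldha, Pgk1, Pkm and Tpi1 had none. Both shares were nearer to the 51.2% of all coding genes than the 19.3% of cytosolic ribosomal genes was. The glycolysis list changed its side by the assigned gene, and neither share is read as depletion. Complex I genes, of the respiratory chain, had a peak on 18 of 49 (36.7%) at a median of 4.03, led by the assembly factor gene Ndufaf4 (17.5). Among their 8 genes with a peak at a log10 FDR of -10 or lower the median was 12.6, so this list changed from below to above the coding median of 9.55 under that limit.

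Short and tissue-restricted families were rarely covered. Histones had a peak on 17 of 103 genes (16.5%), with H2bc21 highest (53.8) and H2bc6 with the most peaks (5), chemokine ligands on 6 of 38 (15.8%), led by Cx3cl1, a membrane-bound chemokine (10.8), and interleukins on 8 of 33 (24.2%), led by Il15 (14.8, with a log10 FDR of -4.15). Keratins had 6 of 53 (11.3%), led by Krt19 of simple epithelia (6.79), and olfactory receptors 10 of 1110 (0.901%). Histone genes have a median length of 0.501 kb and olfactory receptor genes one of 0.95 kb. Neither the part of length nor that of expression was tested.

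Of the 47 lists and families, 31 had a larger share of members with a peak than all coding genes and 16 the same or a smaller one. At a log10 FDR of -10 or lower, beside 40.4% of coding genes, the share changed its side in 4 of them. Secretory (25%), mesothelial (25%) and potassium channel genes fell below, and granulocyte and mast-cell markers, still at 44.4%, came to lie above. For 44 of them a median highest FE could be computed with all peaks and with those at a log10 FDR of -10 or lower, and 40 kept their side of the coding median, 16 above and 24 below. The 4 that changed by median were complex I, the mesothelial markers (with 1 gene left), the T- and NK-cell markers and the Klf factors.

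GO terms in the list's own text covered 9537 of the 13365 genes with a peak (71.4%). Their median highest FE was 9.13, and 815 terms had at least 30 genes. The largest terms were broad and close to that median, with protein binding (3766 genes) at 9.05, cytoplasm (3598) at 8.05, membrane (3579) at 9.02, nucleus (3393) at 9.27 and integral component of membrane (2465) at 9.87. Terms share many genes and are not independent.

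Of terms with at least 30 genes, the 5 with the highest medians were as follows. Positive regulation of JUN kinase activity (32 genes) stood at 16.9, with the Wnt receptor genes Fzd5 (39.7), Fzd4 (32.2) and Fzd8 (27.6) and the repressor gene Zeb2 (33.1, 8 peaks) among its highest. Positive regulation of cell differentiation (30 genes) stood at 16.2, led by Jun and by the morphogen gene Bmp4. By the assigned gene these terms were at 12.6 and 9.15, so their place depended on the gene name used. Voltage-gated ion channel activity (62 genes) at 15.9 was led by potassium channels, with Kcnj14 (66.7), Kcng1 (60.7) and Kcnd3 (53.3). Synapse assembly (33 genes, 15.8) held Shank1 (74), the acetylcholinesterase gene Ache (52.3) and the neuroligin genes Nlgn3 (45.9) and Nlgn1 (37), and 84.8% of its genes had 2 or more peaks, beside 57.8% of all annotated genes. Inner ear morphogenesis (31 genes, 15.8) was led by the homeobox genes Prrx1 (38.7) and Six4 (36.5). Positive regulation of epithelial cell proliferation (44 genes) tied with synapse assembly and inner ear morphogenesis at 15.8. Genes named for brain or ear functions thus carried peaks in lung, as did genes named for epithelial growth.

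At the other end, myelin sheath (78 genes), which by its GO content holds many abundant metabolic and cytoskeletal proteins, stood at 3.23, although Bcl2, the survival gene, reached 27.3. The catalytic step 2 spliceosome (44 genes) had a median of 3.68, with Syncrip (38.1) and the splicing factor gene Slu7 (25.9) far above it. Serine-type peptidase activity (32 genes) stood at 3.8, but at 5.64 by the assigned gene, mRNA transport (47) at 4.06 and structural constituent of ribosome (58) at 4.09. Genes of this last term had 2 or more peaks in 22.4% of cases. Among the highest of them were Mrpl19 (19.7, with a log10 FDR of -4.95) and Mrps7 (15.8), of the mitochondrial ribosome. The family of mitochondrial ribosomal protein genes taken by symbol held higher values, led by Mrpl45 (30.6).

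KEGG pathways covered 3642 genes (27.2%), with a median highest FE of 8.73 and 188 pathways of at least 30 genes. The largest were Pathways in cancer (9.85), Herpes simplex virus 1 infection (275, 13.2), Human papillomavirus infection (202, 8.72), PI3K-Akt signaling (197, 8.88) and MAPK signaling (180, 10.7). With all peaks and the called gene, the herpes pathway was also the highest by median. Of its 275 genes 151 carry Zfp symbols, so it is largely the zinc finger family under another name. Next came Neuroactive ligand-receptor interaction (111 genes, 12.7), with Htr2a (68.6), the glutamate receptor gene Grik2 (61.2) and the muscarinic receptor gene Chrm3, which mediates airway contraction and had 8 peaks up to 15.3, the highest with a log10 FDR above -10. Methacholine acts on muscarinic receptors, and any part of a provocation in these values was not tested.

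Signaling pathways regulating pluripotency of stem cells (91 genes, 12.6), Jak-STAT signaling (81, 12.5) and Hedgehog signaling (38, 12.2) followed. By the assigned gene the pluripotency pathway (11.0) and Neuroactive ligand-receptor interaction (11.9) were not among the 5 highest, and at an FDR under 0.01 with an FE of at least 2 the pluripotency pathway was again not among them. Jak-STAT had among its highest Myc (79), Il5ra, the interleukin-5 receptor gene of eosinophils (52.3), the growth factor receptor gene Egfr (33) and Ifnlr1, of interferon lambda signalling (30.6). In Hedgehog signaling 84.2% of genes had 2 or more peaks, beside 56.5% of all genes with a pathway, and the kinase gene Csnk1a1 (37.2), Ptch1 (29) and the hedgehog coreceptor gene Gas1 (28.6, 5 peaks) were among the highest.

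The lowest pathways were Ribosome (39 genes, 3.15), Oxidative phosphorylation (37, 3.29), Cardiac muscle contraction (32, 3.63), Parkinson disease (47, 4.00) and Huntington disease (84, 4.34), of which all but Ribosome share respiratory chain genes. By the assigned gene Oxidative phosphorylation was at 5.69 over 52 genes and no longer among the 5 lowest, so its place depended on the gene name used. Parkinson and Huntington disease, at 4.74 and 4.97, also left the 5 lowest. Oxidative phosphorylation was also not low at a log10 FDR of -10 or lower, with a median of 9.8 over 24 genes beside 9.27 over all genes with a pathway, and Ribosome stayed below it at 5.77 over 20 genes. The highest peaks of Oxidative phosphorylation were on Cox11, an assembly factor of cytochrome oxidase (63.7, at its transcript start), Ndufs4 (17.3) and Ndufa13 (17.1), and the mitochondrial genes mt-Nd5 (16.5) and mt-Co2 (16.3). The genes of the pathway left out under that limit had only weaker peaks.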

How the data were processed

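The authors used FASTP for read cleaning, HISAT2 for mapping (Ensembl release 101, mouse), exomePeak for peaks and ChIPseeker for annotation (no versions given). The deposited fold enrichment is a ratio of IP over input. The deposited score is the log10 of p or FDR. A gene was the one on which a peak was called, and the assigned gene, stricter limits and merging of overlapping peaks (1 bp, or 50% of the shorter) were alternatives. GO and KEGG text came from the list, lengths and sequences from RefSeq GRCm38.p6, whose table of transcript starts held no window on chromosome 18. Families were taken by symbol pattern, so they include relatives such as Rab-binding proteins. Members and lists were chosen with earlier results of these data known. Genes named are the 10 with the most peaks, the 10 peaks of highest fold enrichment at a log10 FDR of -10 or lower, 10 by fold enrichment of the 25 with a log10 p of minus infinity, the highest 2 in each class of at least 100 peaks, and in each list with a peak but olfactory receptors the highest; the most peaks and up to 6 without a peak are named for part of the lists; terms are the 5 largest, 5 highest and 5 lowest of at least 30 genes. Genes named within a GO term or pathway, further list members, and the miRNAs and transcript starts shown were chosen after their values were seen. Wilson intervals are 95%. Code was tested on simulated data and used Python 3.11.15, numpy 2.4.6, pandas 2.3.3 and scipy 1.17.1.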

Additional observations from a re-analysis of the deposited data

How the results depend on the processing

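An FE of at least 2 gave 53.5% of genes with 1 peak, 11.8% of peaks in the 5′ UTR, 43.4% in the protein-coding class, a median FE of 6.32 and 48.7% of coding genes with a peak. An FDR under 0.01 with it gave 54.7% with 1 peak, 54.1% in the 3′ UTR, 43.5% in the protein-coding class, a median of 6.56 and 47.6% of coding genes. An FDR under 0.05 moved the median to 5.59. Counting overlapping peaks once gave, at 1 bp, 50.7% with 1 peak, 53.5% in the 3′ UTR, a median of 5.45 and 50.2% of coding genes, and, at an overlap of 50% of the shorter peak, 53.4% in the 3′ UTR and 50.3% of coding genes. By the assigned gene, 51.0% of genes had 1 peak and 46.3% of coding genes a peak. Peaks with the same called and assigned gene gave 54.4%, 47.2% in the 3′ UTR, 13.9% in the 5′ UTR, a median of 5.43 and 42.3%. A log10 FDR of -10 or lower, chosen after seeing the data, left 16012 peaks, with 61.2% of genes at 1 peak, 61.4% in the 3′ UTR, 10.02% in the 5′ UTR, a median of 7.03 and 40.4% of coding genes. The cause of these shifts was not tested. The glycolysis, B-cell and collagen lists changed their side of all coding genes by the assigned gene, and no other list did so among the 4 planned settings. At a log10 FDR of -10 or lower the secretory, mesothelial, potassium channel and granulocyte lists changed theirs. No paired analysis was possible because the list gives 1 value a peak for the whole group, and leaving out each mouse could not be run because the list pools the 3 mice. Without read counts, the precision of an FE and the part of depth in a missing peak are unknown.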

Other observations

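The list runs through the chromosomes in order for its first 25456 peaks and then starts again at chromosome 1 for 646 more (2.47%), with a median FE of 7.26 beside 5.43 before them. Of these, 453 lay on genes already present and 305 overlapped an earlier peak. Mex3d and Neat1 were among the genes listed with near-duplicate peaks, chosen after their values were seen.

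Among all peaks, 1648 pairs overlapped by at least 1 exonic bp, 1374 of them called on different genes. The higher FE of these 1374 pairs was a median of 1.12 times the lower, and in 248 (18.1%) it was at least 2 times the lower. On chromosome 1, a peak at chr1:153899722-153900228 had an FE of 13.8 on Teddm2, and one at chr1:153899943-153900737 had an FE of 2.38 on Glul, the glutamine synthetase gene, a pair chosen after its values were seen. Another peak on Teddm2, with a block that overlapped the same place, had an FE of 2.03. The protein kinase A anchor genes Pakap and Akap2 had near-identical peaks with an FE of 14.5 on each, at chr4:57855821-57894254 and chr4:57855822-57894255.

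Some values recurred exactly. Pairs of FE and log10 p that were shared by at least 5 genes numbered 195 and held 2325 peaks (8.91%), none with a log10 p below -12. An FE of 10.4 with a log10 p of -2.75 was listed on 67 genes, and an FE of 11.4 with -3.07 on 66. A high FE alone, as on these genes, does not mark a strong peak.

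No peak lay on chromosome Y and 691 lay on chromosome X, in female mice.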
